A study of Mus musculus with 2 samples.

Results

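The progenitors described here were marrow cells that carried transcripts of Cd34 or Kit and had few transcripts of any mature lineage. There were 94 of them among 10610 profiled cells, 48 in the MCAO library and 46 in the control library. They were chosen by their own transcript levels. A cell needed at least 4000 unique molecular identifiers (UMIs, one per captured transcript) and a summed level of Cd34 and Kit of at least 3 UMIs per 10000 UMIs of the cell. It also had to lie under 100 for the primary granule genes Mpo, Elane, Prtn3 and Ctsg, and under 400 for S100a8 and S100a9. Further limits were 30 for the basophil and mast cell genes Cpa3, Mcpt8, Prss34 and Ms4a2, and 15 for the erythroid genes Car1, Klf1, Hemgn, Aqp1 and Rhd. The last limits were 10 for the B-lineage genes Cd79a, Cd79b and Vpreb1, and 20 for the plasmacytoid dendritic genes Siglech, Ccr9 and Cox6a2. Levels of those genes are therefore given as a description. All levels below are UMIs per 10000 UMIs, from the summed UMIs of the cells named unless a single cell is meant, and are compared between libraries and not between genes.

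The study profiled single cells of bone marrow after stroke. The MCAO library came from male wild-type (WT) mice aged 8 to 10 weeks in which the middle cerebral artery had been occluded, a standard rodent model of ischaemic stroke. The control library came from male WT mice of the same age. In both, marrow was flushed from tibias and femurs, red cells were lysed, and all remaining cells were loaded unsorted on BD Rhapsody, a microwell system that tags the 3′ ends of transcripts. How many mice each library pooled, how long after the occlusion marrow was taken and what the control mice underwent are not given in the sources used here. Each condition was 1 library, so no difference below has a replicate check and no test was possible: library and condition cannot be told apart. All intervals are 95% intervals that cover counting error only.

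Haematopoietic stem and progenitor cells sit at the top of blood formation. KIT, the receptor for stem cell factor, and the surface protein CD34 mark mouse progenitors, FLT3 is the receptor that marks multipotent and lymphoid-primed stages, and CDK6 is a kinase that takes such cells out of rest. As they commit, they switch on lineage programs: Gata2 and then Gata1 towards erythroid and megakaryocyte fates, Irf8 towards monocytes and dendritic cells, Cebpe and Gfi1 towards neutrophils, and Dntt and Il7r towards lymphocytes.

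The libraries differed in depth. Cells had a median of 4952 UMIs in the MCAO library (5398 cells) and of 3344 in the control library (5212 cells). The progenitors themselves had a median of 11064 UMIs and 3881 genes in the MCAO library (4141 to 25187 UMIs), against 9284 UMIs and 3442 genes in the control library (4268 to 25761 UMIs). Their summed depth was 556811 UMIs in the MCAO library and 482474 in the control library. The progenitors also carried transcripts typical of abundant cells. Free RNA from those cells can add such transcripts, but its level was not measured and its part was not tested. All 94 progenitors carried neutrophil granule transcripts, with a per-cell median level of 160 in the MCAO library and 144 in the control library, against 163 in MCAO and 138 in control B-lineage cells. Haemoglobin transcripts had a per-cell median of 15.9 in MCAO progenitors and 7.79 in control progenitors. B-lineage cells held 16.0 in the MCAO library and 8.41 in the control library, so the haemoglobin level of progenitors was close to that of cells that make none and was left out of the comparisons.

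The rule left 237 cells after the Cd34 and Kit condition, and its later conditions cut these to 94. Of the cells that passed the Cd34 and Kit condition and failed only 1 other, those that failed the primary granule condition were the largest group. They numbered 40 in the MCAO library and 36 in the control library. The S100a8 and S100a9 condition alone was failed by 16 MCAO and 12 control cells. Another 15 MCAO and 8 control cells failed only the erythroid condition. At the Cd34 and Kit threshold, the 3 cells just inside had 3.07, 3.16 and 3.36, and the 3 just outside had 2.95, 2.90 and 2.89. At the primary granule threshold, the values just inside were 99.6, 99.1 and 97.7 and those just outside 101, 104 and 106. When every cell was thinned to 4000 UMIs before the rule was applied, 87 cells passed, of which 78 were among the 94. Values ran on without a gap across the Cd34 and Kit and the primary granule thresholds, so there the borders are those of the rule. Basophil and mast cell values (29.8 just inside, 31.7 just outside) and erythroid values (14.9 and 18.9) were also close. Gaps were wider for S100a8 and S100a9 (226 and 545) and for UMIs (4141 inside, 3599 outside). They were also wider for the B-lineage genes (5.77 and 36.6, 1 cell outside) and the plasmacytoid dendritic genes (14.9 and 52.4, 2 cells outside).

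Progenitors made up 1.47% of the MCAO cells with at least 4000 UMIs (48 of 3273; exact interval 1.08 to 1.94%), against 2.08% of such control cells (46 of 2215; 1.52 to 2.76%). The difference was -0.61 percentage points, with an interval of -1.38 to 0.0895 that includes 0. Over all cells of any depth the shares were 0.889% in the MCAO library and 0.883% in the control library. The UMI limit and the deeper MCAO library act on the denominator, and their part in the difference was not tested.

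Of the 4 marker genes, Cd34, Kit and Cdk6 were detected in most members and Flt3 in fewer. Cd34 (mouse chr1:194938819-194961279 on mm10) had 8.62 UMIs per 10000 in MCAO progenitors (interval 7.87 to 9.43), against 7.34 in control progenitors (6.59 to 8.14), and 0.24 in MCAO and 0.32 in control cells among the others with at least 4000 UMIs. It was detected in 40 of 48 MCAO and 44 of 46 control members. Kit (chr5:75574916-75656722) had 2.35 in MCAO and 2.55 in control progenitors, in 43 MCAO and 38 control cells. Cdk6, which the rule did not use, had 11.6 in MCAO progenitors (10.7 to 12.6) and 9.41 in control progenitors (8.56 to 10.3), in 44 cells of each library, against 2.01 in the other MCAO cells and 2.11 in the other control cells. Flt3, also outside the rule, had 2.53 in MCAO and 2.94 in control progenitors, in 30 MCAO and 29 control cells, against 0.21 in the other MCAO cells and 0.14 in the other control cells. The fold between libraries was 1.23 (1.09 to 1.40) for Cdk6 and 0.86 (0.68 to 1.09) for Flt3. Cd34 and Kit chose the cells, and genes that go with them can be high through that choice. Cdk6 and Flt3 are therefore a description too: Cdk6 was found in most members and Flt3 in fewer.

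Some members carried markers of mature cells as well. At least 3 UMIs after thinning were found in 1 member for the eosinophil list, 2 for the T or NK list, 3 for the B-lineage list and 6 for the macrophage list. A control member had 2094 eosinophil-list UMIs among 10724, of which 1907 were Prg2 (major basic protein), beside 9 of Cd34. Another control member had 30 T or NK list UMIs among 5286, of which 15 were Trbc1, beside 2 of Kit. An MCAO member had 14 of 4141, with 6 of Klrd1 and 5 of Klrb1c, beside 3 of Kit. The member highest in the B-lineage list, an MCAO cell, had 22 of its UMIs before thinning. The members highest in the macrophage list had 21 UMIs of it in the MCAO library and 32 in the control library. A doublet caller marked none of the 94 members (0 of 48 MCAO and 0 of 46 control) while marking 64 MCAO cells (1.19%) and 54 control cells (1.04%) of all types. It also marked only 38.1% of the simulated doublets in the MCAO library and 41.6% in the control library, so doublets may remain among the members. Stroma and endothelium were at or near 0: Cdh5 and Lepr had no UMI in any member.

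**Figure D1:**
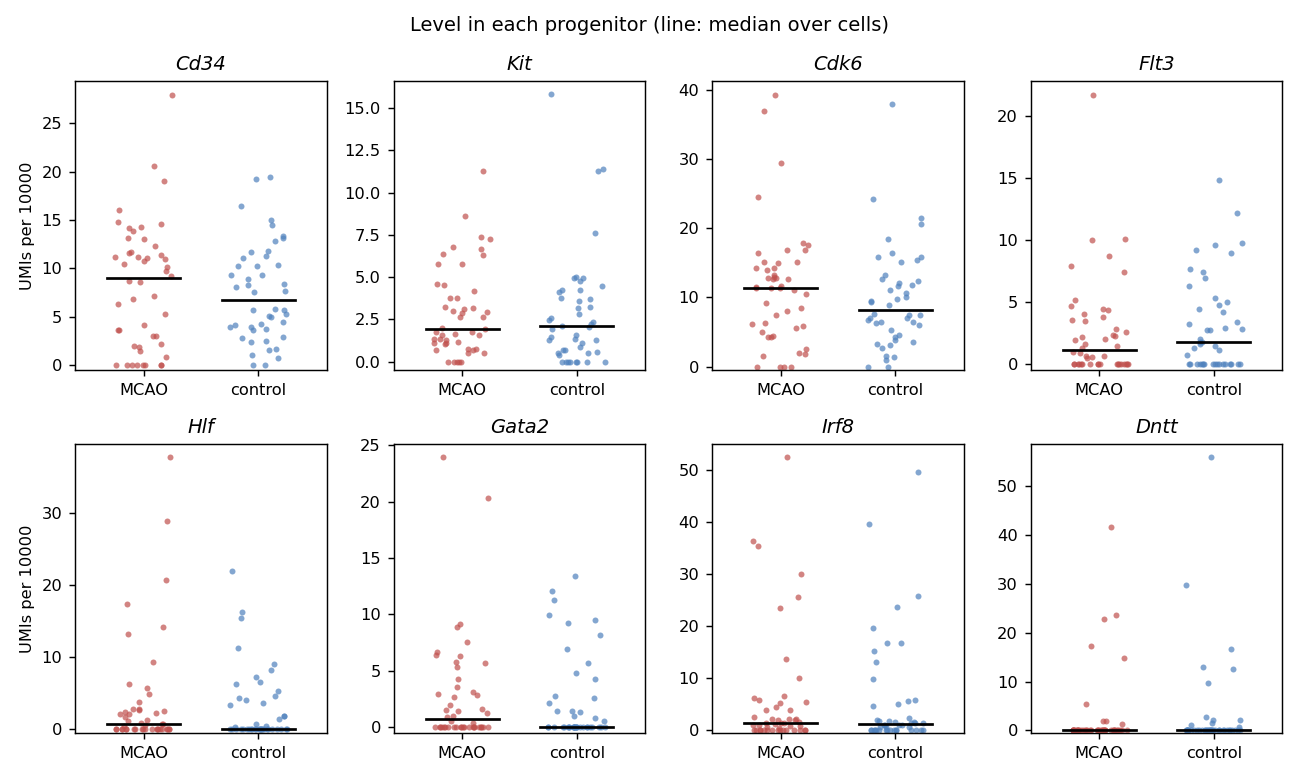
Levels of 8 genes in each of 48 MCAO and 46 control progenitors, in UMIs per 10000 UMIs of the cell; each point is a cell and each line the median over cells. Cd34 and Cdk6 were present in most cells of both libraries, while Dntt, Irf8, Hlf and Gata2 were each high in a subset of cells and at 0 in many.

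The genes most raised in progenitors over the other cells with at least 4000 UMIs, none of them used by the rule, are given as a description of cells chosen by expression. Angpt1, which encodes the ligand angiopoietin 1, had 2.80 in MCAO and 2.67 in control progenitors and was 36.5-fold above the other cells. Adgrg1 (GPR56), an adhesion receptor of stem cells, had 6.48 in MCAO and 5.62 in control progenitors, 18.1-fold above the other cells. Hlf, a transcription factor of stem cells, had 3.04 (2.59 to 3.53) in MCAO and 2.45 (2.02 to 2.93) in control progenitors, against 0.14 in the other cells of each library. Meis1, a partner of HOX factors, had 1.33 in MCAO and 1.66 in control progenitors and was 28.4-fold above. Others among the leading 15 were Adgrl4, Mdga1, Myct1, Ctla2a, Cd27, Slc22a3, Hmga2, Mycn, Serpina3g and Muc13.

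Most markers of long-term stem cells were scarce: Mecom had 10 UMIs in MCAO and 11 in control progenitors, and Procr, Slamf1, Fgd5 and Esam each stayed at or below 0.17.

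Within the 94 cells, some pairs of lineage genes were rarely found together and others often. Each cell was thinned to 4000 UMIs so that depth did not set detection. Dntt, which encodes the terminal transferase of lymphoid precursors, was detected in 14 progenitors. Of these, 13 also had Flt3 and 8 also had Il7r, the interleukin 7 receptor, while 1 had Gata2 and none had Itga2b, Gata1 or Csf1r. Gata2 was detected in 33 progenitors, of which 18 had Itga2b (the integrin CD41), 7 had Flt3 and none had Il7r. Gata1 was in 9 cells, and 8 of them had Gata2.

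Irf8, the monocyte and dendritic cell factor, was detected in 44 progenitors, and 14 of the 17 cells with Csf1r, the receptor for M-CSF, were among them. It was also found in 5 of the 14 cells with Dntt, 6 of the 11 with Il7r and 8 of the 33 with Gata2. Hlf was found in 32 cells. It shared 23 with Ly6a (the antigen Sca-1), 15 with Gata2 and 9 with Irf8. None of the 9 cells with Gata1 had Ly6a. These are counts in sparse data, in which a transcript can be missed, so absence of a second gene in a cell is not absence of its expression.

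**Figure D2:**
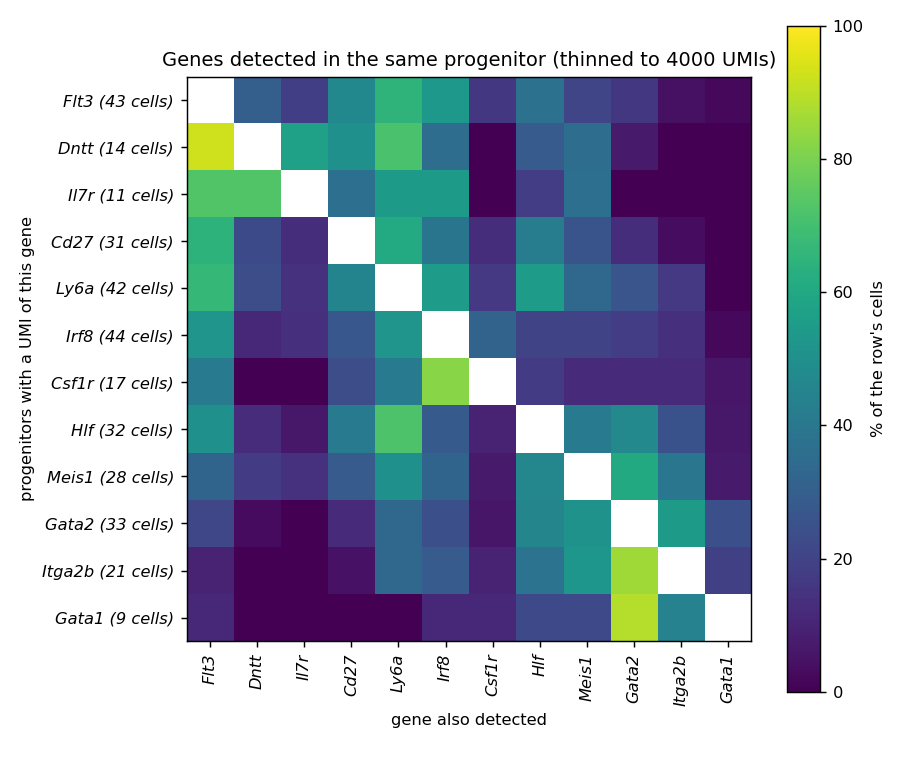
Percentage of the progenitors with a UMI of the row's gene that also had a UMI of the column's gene, after thinning each of the 94 cells to 4000 UMIs; the number of cells is given beside each row. Dntt goes with Flt3 (13 of 14 cells) and Gata1 with Gata2 (8 of 9), and Dntt was found in no cell with Itga2b, Gata1 or Csf1r.

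These leanings were described with 6 marker lists, as ranges and not as cell types, since a cell may carry several. A cell was counted when it had at least 3 UMIs of the list after thinning. Stem and multipotent genes passed in 39 MCAO cells (81.3%) and 34 control cells (73.9%). Genes of erythroid entry, led by Car2 (carbonic anhydrase 2) and Zfpm1, a cofactor of GATA1, passed in 27 MCAO cells (56.3%) and 25 control cells (54.3%). Monocyte and dendritic genes passed in 21 MCAO cells (43.8%) and 17 control cells (37.0%). Lymphoid-primed genes passed in 16 MCAO cells (33.3%) and 14 control cells (30.4%). Granulocyte genes outside the rule, such as Gfi1 and Csf3r, and megakaryocyte genes each passed in 11 MCAO cells (22.9%) and 7 control cells (15.2%).

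The interval of the difference between libraries included 0 for all 6 leanings. The differences ran from 1.90 percentage points for erythroid entry (-17.5 to 21.2) to 7.70 for the granulocyte and megakaryocyte lists (-8.47 to 23.3 each). Upper bounds of the 6 intervals ran from 21.0 to 25.5 points and lower bounds from -17.5 to -8.47. With these cell numbers a rise of about 20 points in MCAO cells thus lay within each interval. The sign of the difference turned under at least 1 alternative setting for 5 of the 6 leanings, with lowest values of -18.8 points for the lymphoid, -7.16 for the stem, -7.07 for the monocyte and dendritic, -4.27 for the megakaryocyte and -0.45 for the granulocyte list. Settings that changed the members also thinned the cells anew, so their effect cannot be told apart from that of a new draw. Many cells lay near the limit of 3 UMIs. For the granulocyte list 20 cells had exactly 2 UMIs and 10 exactly 3, for the monocyte and dendritic list 16 had exactly 2 and 9 exactly 3, and for the stem list 5 had exactly 2 and 3 exactly 3. Of the 94 progenitors, 38 carried 2 leanings, 33 carried 3 and 11 carried 4, while 2 carried none. The 11 with 4 leanings were 9 MCAO cells and 2 control cells.

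Other cells also passed for these lists. Among cells high in S100a8 and S100a9, 12.8% passed for the stem list, 5.50% for erythroid entry, 9.0% for the monocyte and dendritic list, 5.83% for the lymphoid list and 1.00% for the megakaryocyte list, each cell thinned to the same 4000 UMIs. Progenitors lay above each of these. B-lineage cells, which express some of these genes themselves (Adgrg1 had 1.6 in MCAO and 1.13 in control B-lineage cells), passed at 40.0% for the stem list, 46.2% for erythroid entry, 44.9% for the monocyte and dendritic list, 76.0% for the lymphoid list and 1.33% for the megakaryocyte list. The lymphoid share of B-lineage cells was above that of the progenitors, and their monocyte and dendritic share was close to that of MCAO progenitors. For the granulocyte list the cells high in S100a8 and S100a9 stood at 98.8%, and B-lineage cells at 16.0%, near the 22.9% of MCAO and 15.2% of control progenitors. The part of free RNA in these shares was not tested.

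**Figure D3:**
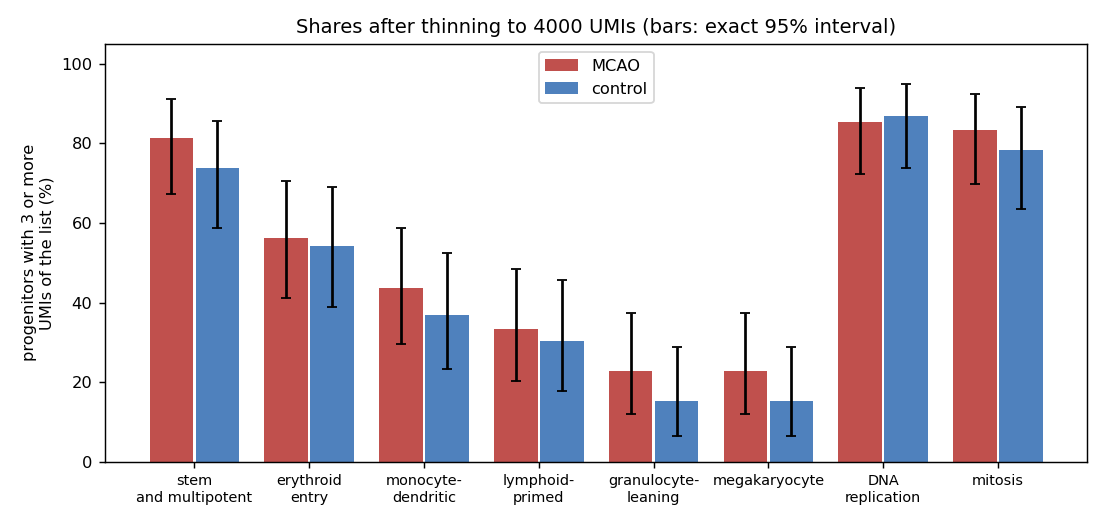
Share of 48 MCAO and 46 control progenitors with at least 3 UMIs of each marker list after thinning to 4000 UMIs, in percent, with exact 95% intervals for counting error. The stem and multipotent list, DNA replication and mitosis passed in most cells, and the intervals of the 2 libraries overlap for every list shown.

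Most of the 18 cells of the megakaryocyte leaning also passed for the stem and erythroid entry lists. Of them, 17 passed for the stem list, 15 for erythroid entry, 4 for the monocyte and dendritic list and 2 for the lymphoid list. Angpt1 had 5.71 in the 11 such MCAO cells and 5.58 in the 7 such control cells, against 2.07 in the other MCAO and 2.17 in the other control progenitors. Car2 had 19.3 in the MCAO and 20.1 in the control cells with the leaning, against 4.81 in MCAO and 6.84 in control progenitors without it. Gata2 had 4.28 in MCAO and 5.85 in control cells with the leaning, against 1.66 in MCAO and 1.83 in control progenitors without it. Irf8 had 0.62 in MCAO and 0.98 in control cells with it, against 7.62 in MCAO and 7.50 in control progenitors without it, so both libraries showed the same split.

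The megakaryocyte list as a whole had 4.02 in MCAO and 2.51 in control progenitors, a fold of 1.6 (1.28 to 2.02). A single MCAO cell held 22.3% of the MCAO UMIs of the list. Without the highest cell of each library the levels were 3.21 in MCAO and 2.12 in control progenitors. Pf4, the platelet factor stored in platelet granules, had 24 UMIs in MCAO and 5 in control progenitors, and 1 cell held 72.4% of them. Itgb3, an integrin subunit of platelets, had 26 UMIs in MCAO and 3 in control progenitors, with 41.4% in 1 cell. Platelet granule and glycoprotein genes such as Gp9, Vwf and Treml1 stayed at or below 0.09 in both libraries.

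The 30 cells with a lymphoid leaning had more Flt3 and little Gata2. Flt3 had 4.92 in the 16 MCAO cells and 7.19 in the 14 control cells, against 1.49 in MCAO and 1.59 in control progenitors without it. Gata2 had 0.18 in the MCAO and 0.26 in the control cells, against 3.07 in MCAO and 3.12 in control progenitors without it. Hoxa9, a homeobox factor of immature cells, had 2.19 in MCAO and 2.65 in control cells with it, against 1.06 in MCAO and 0.60 in control progenitors without it. Ly6a had 2.31 in the MCAO and 8.22 in the control cells with the leaning, against 1.31 in MCAO and 2.52 in control progenitors without it.

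The 38 cells with a monocyte and dendritic leaning had less Hlf and less Kit. Mpo, which the rule used and kept low, had 20.2 in the 21 MCAO cells and 14.3 in the 17 control cells, against 6.91 in MCAO and 5.55 in control progenitors without it. Hlf had 1.83 in the MCAO and 0.14 in the control cells with the leaning, against 4.30 in MCAO and 4.23 in control progenitors without it. Kit had 1.83 in MCAO and 1.14 in control cells with it, against 2.90 in MCAO and 3.64 in control progenitors without it. Cd48, a surface protein that multipotent cells gain as they leave the stem stage, had 2.88 in MCAO and 2.85 in control cells with it, against 1.47 in MCAO and 1.40 in control progenitors without it.

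The neighbouring cells that failed only the primary granule condition differed in the lists that the rule did not use. The stem and multipotent list passed in 39 of 48 MCAO and 34 of 46 control progenitors, against 13 of 40 MCAO and 11 of 36 control neighbours. Lymphoid-primed genes passed in 16 MCAO and 14 control progenitors, against 3 MCAO and 2 control neighbours. No neighbour passed for the megakaryocyte list, 0 of 76 cells, which allows a share of up to 3.95% by the limit of 3 counts (exact upper bound 4.74%). The granulocyte list passed in 35 MCAO and 31 control neighbours. Monocyte and dendritic genes passed in 24 MCAO and 25 control neighbours, a larger share than the 21 MCAO and 17 control progenitors. Mpo and its partners were high there by rule. Hlf was at 0.21 in MCAO and 0.29 in control neighbours and Flt3 at 0.39 in MCAO and 0.15 in control neighbours. Of the 23 cells that failed only the erythroid condition, 12 passed for the stem list and 3 for the megakaryocyte list. None of the 23 passed for the lymphoid or for the monocyte and dendritic list.

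The comparison of the libraries asks how progenitors after MCAO differed from those of control marrow. A gene was ranked when the progenitors of the libraries together gave 50 or more UMIs of it and it was detected in at least 5% of the members of 1 library, which left 4422 genes. A gene was called when its level differed at least 1.5-fold, which is a size and not a test. Of the ranked genes, 277 (6.26%) were at least 1.5-fold higher and 346 (7.82%) at least 1.5-fold lower in MCAO progenitors, and the median log2 ratio was -0.0037. Lists are read against these shares, by their counts and the median log2 ratio of their ranked members.

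Genes of mitosis were lower in MCAO progenitors. Of the 19 ranked genes of the list, 11 were at least 1.5-fold lower and none higher, the other 8 were lower by less, and the median log2 ratio was -0.64. Ube2c, a ubiquitin-conjugating enzyme of the anaphase-promoting complex (chr2:164769898-164778822), had 1.19 in MCAO and 3.86 in control progenitors, a fold of 0.31 (0.23 to 0.41). Cenpa, the centromere histone, had 1.35 in MCAO and 3.01 in control progenitors. Cenpf, a kinetochore protein, had 0.90 in MCAO and 1.97 in control progenitors, and Mki67, the proliferation marker Ki-67, had 5.14 in MCAO and 8.00 in control progenitors. Top2a, a topoisomerase, had 11.4 in MCAO and 12.7 in control progenitors and was not called, and its log2 ratio was above 0 under 2 of the alternatives tried.

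Summed over the list, mitosis genes had 38.2 in MCAO and 55.9 in control progenitors, a fold of 0.68 (0.64 to 0.72). The cells varied widely. The per-cell median was 14.1 in MCAO cells (quartiles 7.54 to 41.9) and 20.2 in control cells (7.45 to 65.4), so the ranges of the libraries overlapped almost fully. Levels of at least 50 were found in 12 MCAO cells (25%) and 16 control cells (34.8%). A single MCAO cell held 17.6% of the MCAO UMIs of the list, and without the highest cell of each library the fold was 0.62. Among the other cells with at least 4000 UMIs the list had a median of -0.10, and in cells that failed only the granule condition it was 0.22, with summed levels of 37.4 in MCAO and 32.8 in control cells. In the 15 MCAO and 8 control cells that failed only the erythroid condition it was -0.77, with summed levels of 39.6 in MCAO and 63.8 in control cells.

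DNA replication genes leaned the other way. Of 20 ranked genes, 3 were at least 1.5-fold higher, none was at least 1.5-fold lower, and the median was 0.29, with a range of 0.17 to 0.46 over the alternative settings. Mcm2, a subunit of the replicative helicase, had 2.03 in MCAO and 1.35 in control progenitors. Ung, a uracil glycosylase that acts at replication forks, had 1.04 in MCAO and 0.58 in control progenitors, and Hells, a chromatin remodeller, had 2.33 in MCAO and 1.55 in control progenitors. Mcm6 had 5.05 in MCAO and 3.54 in control progenitors, while Mcm3 had 2.41 in MCAO and 2.61 in control progenitors and Mcm4 had 2.14 in MCAO and 2.40 in control progenitors. Summed levels were 46.3 in MCAO and 39.8 in control progenitors, a fold of 1.16 (1.10 to 1.24), with per-cell medians of 37.1 in MCAO and 27.1 in control cells.

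The 2 cell cycle lists were also counted cell by cell. At a level of at least 10 UMIs of a list after thinning, both lists passed in 16 MCAO cells (33.3%) and 15 control cells (32.6%), and neither passed in 15 cells of each library. Replication without mitosis was found in 16 MCAO cells (33.3%) and 9 control cells (19.6%), a difference of 13.8 points (-4.15 to 30.5). Mitosis without replication was found in 1 MCAO cell (2.08%) and 7 control cells (15.2%), a difference of -13.1 points (-26.3 to -1.46). At the lower limit of 3 UMIs, mitosis passed in 40 MCAO cells (83.3%) and 36 control cells (78.3%), and mitosis without replication in 6 MCAO and 2 control cells, so that split does not hold at the lower limit. Free RNA and depth bear on such calls, and their part was not tested.

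**Figure D4:**
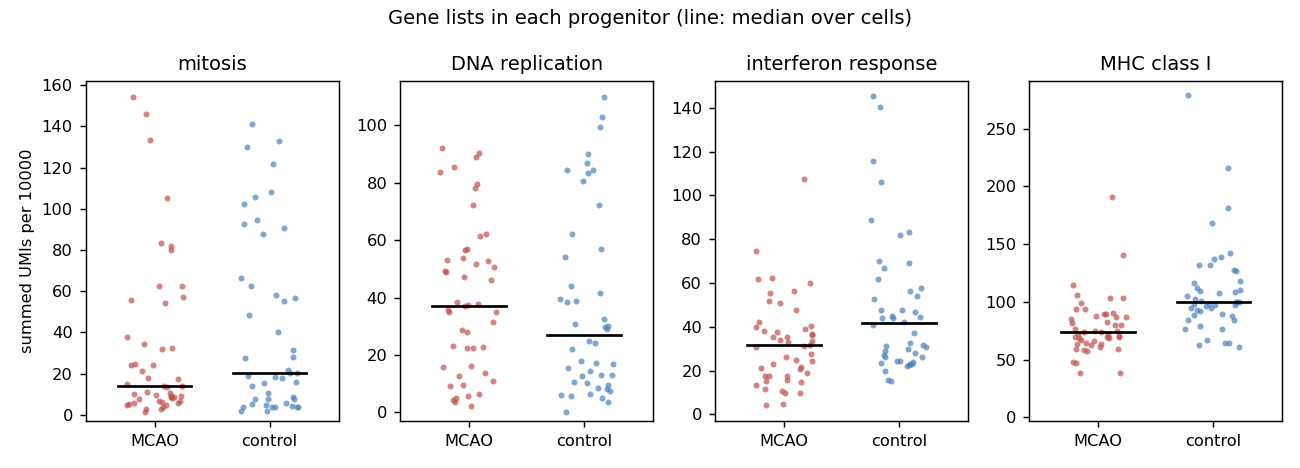
Summed level of 4 gene lists in each of 48 MCAO and 46 control progenitors, in UMIs per 10000 UMIs of the cell; points are cells and lines are medians. The MHC class I medians of 74.2 in MCAO and 100 in control cells are set furthest apart beside their spread, and the mitosis values of the libraries overlap almost fully.

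Ribosome biogenesis and Myc targets had 15 ranked members with none past 1.5-fold and a median of 0.18. Myc itself, the growth factor-induced transcription factor, had 3.61 in MCAO and 2.61 in control progenitors. The cytosolic ribosomal protein genes had 15 ranked members with none called and a median of 0.10, and summed levels of 315 in MCAO and 294 in control progenitors. Glycolysis had 10 ranked genes, 1 higher and 1 lower, with a median of 0.18, and the nuclear-encoded respiratory chain had 14, of which 2 were higher, with a median of 0.10. Among cell cycle brakes, 1 of 6 was called: Cdkn1b, which encodes the inhibitor p27, had 1.96 in MCAO and 3.17 in control progenitors.

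Interferon response genes were lower in MCAO progenitors. Of 19 ranked genes, 10 were at least 1.5-fold lower and none higher, 18 had a log2 ratio below 0, and the median was -0.58, or -0.27 when the Cd34 and Kit sum had to be at least 5. Irf7, which amplifies type I interferon, had 0.79 in MCAO and 1.70 in control progenitors. Isg15, a ubiquitin-like protein, had 0.70 in MCAO and 1.41 in control progenitors, and Ifi27l2a had 2.19 in MCAO and 3.77 in control progenitors. Ifi44 stood apart with 2.21 in MCAO and 2.18 in control progenitors. The per-cell sum had a median of 31.5 in MCAO cells (quartiles 17.7 to 40.0) and 41.7 in control cells (26.2 to 57.4), and 37 of 48 MCAO cells lay below the control median.

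MHC class I genes, which present peptides to T cells, showed a like difference with less spread. Of 13 ranked genes, 4 were at least 1.5-fold lower and none higher, and the median was -0.38. Tap1, a subunit of the peptide transporter (chr17:34187553-34197225), had 0.93 in MCAO and 2.36 in control progenitors, a fold of 0.40 (0.28 to 0.55), and it overlaps Psmb9 on the other strand, which had 1.58 in MCAO and 1.70 in control progenitors. H2-K1, a class I heavy chain, had 14.8 in MCAO and 22.8 in control progenitors, H2-D1 had 18.0 in MCAO and 23.1 in control progenitors, and the light chain B2m had 24.3 in MCAO and 32.1 in control progenitors. H2-Q6 (1.44 in MCAO and 3.05 in control progenitors) and H2-Q7 (1.54 in MCAO and 3.09 in control progenitors) are near-identical copies whose reads may be shared, so their split is uncertain. The per-cell sum had quartiles of 64.4 to 87.9 in MCAO cells and 88.9 to 117 in control cells, and 42 of 48 MCAO cells lay below the control median of 100.

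Both differences were also present outside the progenitors. Among the other cells with at least 4000 UMIs, interferon genes had a summed level of 31.0 in MCAO and 44.4 in control cells and a median of -0.54, and MHC class I genes had 61.5 in MCAO and 87.5 in control cells and a median of -0.43. Cells that failed only the granule condition had medians of -0.36 for interferon and -0.37 for MHC class I genes, those that failed only the erythroid condition -0.90 and -0.66, B-lineage cells -0.30 and -0.28, and cells high in S100a8 and S100a9 -0.53 and -0.40. The mitosis list had -0.77 in the cells that failed only the erythroid condition, -0.35 in B-lineage cells and 0.07 in cells high in S100a8 and S100a9. Within the progenitors, the summed levels of the interferon, MHC class I and mitosis lists were lower in MCAO cells of each of the 6 leanings, and that of DNA replication higher in each, although the leanings share cells.

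**Figure D5:**
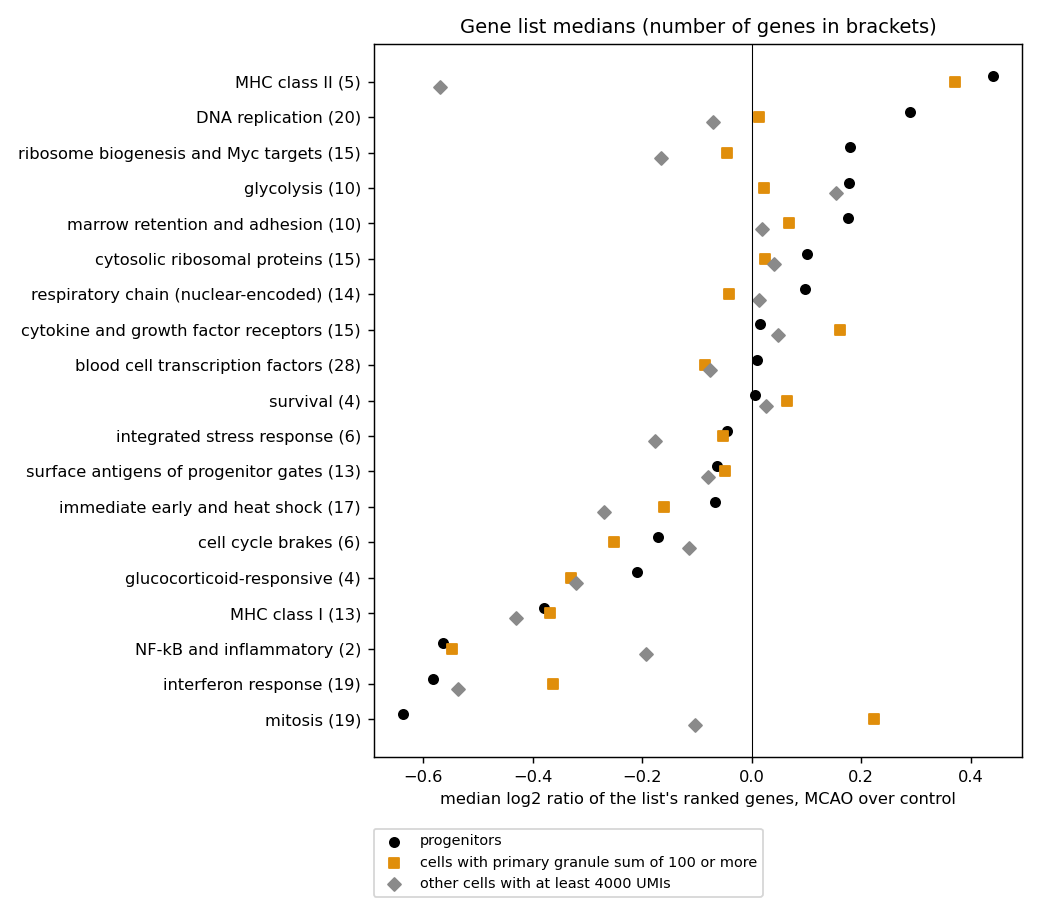
Median log2 ratio of MCAO over control for the ranked genes of each list, in progenitors (circles), in cells that failed only the primary granule condition (squares) and in the other cells with at least 4000 UMIs (diamonds). Interferon and MHC class I medians lie below 0 in all 3 sets, while the mitosis median is -0.64 in progenitors, 0.22 in the granule gene cells and -0.10 in the others.

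The plasmacytoid dendritic list was lower in MCAO progenitors too. It includes Siglech, Ccr9 and Cox6a2, which the rule held low, so it is given as a description. That list had 3.84 in MCAO and 5.76 in control progenitors, and at least 3 UMIs after thinning in 9 MCAO and 22 control cells, a difference of -29.1 points (-45.5 to -10.1). All 3 ranked genes of the list were at least 1.5-fold lower. Among them were Irf7 and Bst2, with 1.78 in MCAO and 2.80 in control progenitors for Bst2. Both are also on the interferon list, but the remaining ranked gene is not. Siglech, a defining gene of those cells held low by the rule, had 0.34 in MCAO and 0.15 in control progenitors. The list was lower outside the progenitors as well. Its 3 ranked genes had a median of -0.65 in progenitors and -0.62 in the other cells with at least 4000 UMIs. The median was -1.29 in cells that failed only the granule condition and -0.83 in those that failed only the erythroid condition. In B-lineage cells it was -0.91, and in cells high in S100a8 and S100a9 -0.55.

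MHC class II genes had a median of 0.44 over 5 ranked genes (1.03 with a Cd34 and Kit sum of at least 5), with 1 at least 1.5-fold higher, but 1 MCAO cell held 51.7% of the MCAO UMIs of the list. Without the highest cell of each library the summed levels were 4.24 in MCAO and 4.97 in control progenitors, so the direction of the sum rests on that cell.

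Of 15 ranked cytokine and growth factor receptors, 2 were higher and 1 lower, with a median of 0.01. Of all ranked genes, 6.26% were higher and 7.82% lower. Kit, which chose the cells, is among the 15 receptors but was left out of that background. Csf2rb, the shared chain of the interleukin 3, interleukin 5 and GM-CSF receptors, had 1.49 in MCAO and 0.79 in control progenitors. Il7r had 0.61 in MCAO and 0.97 in control progenitors. Of 28 ranked transcription factors, 1 was higher and 2 lower, with a median of 0.01. Klf4, a monocyte factor, had 0.74 in MCAO and 0.33 in control progenitors, Gata1 had 0.40 in MCAO and 0.70 in control progenitors, and Lyl1, a stem cell factor, had 0.45 in MCAO and 0.70 in control progenitors. Irf8 had 6.21 in MCAO and 6.53 in control progenitors, Gata2 had 2.19 in MCAO and 2.43 in control progenitors, and Spi1 (PU.1), which drives myeloid fates, had 1.87 in each library.

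Adhesion and retention genes had 10 ranked members with none called and a median of 0.18. Cxcr4, the receptor that holds progenitors in the marrow, had 2.08 in MCAO and 2.65 in control progenitors. Of 13 ranked surface antigens used in progenitor gates, 2 were lower, Ly6a and Fcgr2b, and the median was -0.06. Ly6a (chr15:74994877-74998031) had 1.62 in MCAO and 3.90 in control progenitors, a fold of 0.42 (0.32 to 0.54), and was detected in 29 cells of each library. It had 0.79 in the other MCAO cells and 1.40 in the other control cells. Fcgr2b, an inhibitory Fc receptor, had 0.43 in MCAO and 0.91 in control progenitors.

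Immediate early and heat shock genes had 17 ranked members, of which 2 were higher and 3 lower, with a median of -0.07. Nr4a1, an orphan nuclear receptor induced by many stimuli (chr15:101254269-101274795), had 0.92 in MCAO and 2.43 in control progenitors, a fold of 0.38 (0.27 to 0.53), in 20 MCAO and 26 control cells. Klf2, a quiescence factor of several blood cells, had 0.54 in MCAO and 1.12 in control progenitors, and Zfp36, which destabilises cytokine transcripts, had 2.46 in MCAO and 3.81 in control progenitors. Fosb had 0.86 in MCAO and 0.52 in control progenitors. Fos had 3.04 in MCAO and 3.30 in control progenitors, and Jun had 2.19 in MCAO and 2.26 in control progenitors. Of the NF-kB list only 2 genes were ranked, Nfkbia with 1.28 in MCAO and 1.95 in control progenitors and Nfkb1 with 1.49 in MCAO and 2.16 in control progenitors. The integrated stress response had 6 ranked genes and the survival list 4, none of them called, and the glucocorticoid-responsive list had 4, of which 1 was lower, with a median of -0.21.

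Among genes kept in the ratio rankings, Ccl9, a CC chemokine of myeloid cells (chr11:83572919-83578636), had the highest ratio of MCAO over control. It had 3.20 in MCAO progenitors and 0.73 in control progenitors, from 178 MCAO and 35 control UMIs, a fold of 4.41 (3.05 to 6.53). It was detected in 32 of 48 MCAO and 18 of 46 control cells, and no single cell held more than 7.51% of its UMIs. In cells that failed only the granule condition Ccl9 had 2.87 in MCAO and 2.26 in control cells, and in the other cells 2.01 in MCAO and 1.71 in control cells, so the ratio was smaller there.

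Other genes at the upper end of the ranking were low ones with wide intervals. Polr1a, the large subunit of RNA polymerase I, had 0.93 in MCAO and 0.29 in control progenitors, a fold of 3.22 (1.76 to 6.29). Suclg2, a subunit of a citric acid cycle enzyme, had 0.84 in MCAO and 0.27 in control progenitors. Ddx50, a nucleolar helicase, had 1.35 in MCAO and 0.48 in control progenitors. Fasn, fatty acid synthase, had 0.86 in MCAO and 0.33 in control progenitors, and Cox5a, a subunit of cytochrome oxidase, had 0.90 in MCAO and 0.33 in control progenitors. Zdhhc6, Fam206a, Rmi2, Pja2, Scaf8 and Serpinf1 completed the 12 highest, with folds between 2.48 and 2.84. Outside the progenitors Polr1a, Suclg2 and Ddx50 differed little, with 0.30 in MCAO and 0.28 in control cells for Polr1a. Among genes that were lower in progenitors than in other cells, the highest were Pcyt1a, Herpud2, Neurl3 and Tmem164, with folds of 2.47 to 2.78.

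At the lower end, several genes of division were named beside genes of other functions. Spdl1, which recruits dynein to kinetochores, had 0.18 in MCAO and 0.83 in control progenitors, a fold of 0.22 (0.097 to 0.44), and 1 cell held 20% of its UMIs. Bub1b, a spindle checkpoint kinase, had 0.27 in MCAO and 0.91 in control progenitors, Cdkn3, a cell cycle phosphatase, had 0.23 in MCAO and 0.99 in control progenitors, and Ndc80, a kinetochore protein, had 0.36 in MCAO and 0.87 in control progenitors. Arrdc3, an arrestin family member, had 0.18 in MCAO and 0.83 in control progenitors, and Ash2l, a subunit of histone H3 methyltransferase complexes, had 0.36 in MCAO and 1.33 in control progenitors. Pml, which forms nuclear bodies, had 0.52 in MCAO and 1.33 in control progenitors. Slc45a4, Ly9, Rprd2 and Leprot were the others, with folds of 0.38 to 0.43. CT010467.1, annotated as ribosomal RNA, had 6.73 in MCAO and 18.1 in control progenitors and nearly the same split of 7.20 in MCAO and 16.3 in control cells among the others.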

How the data were processed

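The deposited table gives 25943 genes in 10610 cells on a natural log scale. Back on the linear scale and less 1, the values of every cell add up to 10000, so they are shares of the cell's UMIs, and whole UMIs came back for 100% of values above 0 (tolerance 0.01 UMIs). Per the submitters' processing notes, the tools were STAR, fastp, Seurat 4.0.6 and UMI-tools, on mm10. Gene annotation, strand use and cell filters are not given in the sources used here. Columns were tied to a library by translating their prefixes as the words for control and stroke. The rest of a column name behaved as a serial number, with 5120 shared by both libraries, so shared barcodes could not be counted. The table held no gene with the mitochondrial prefix.

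The 8 conditions of the rule were applied to the recovered UMIs. Levels are summed UMIs per 10000, log2 ratios use a pseudocount of 0.02 per 10000, and a fold has an exact conditional binomial interval. Shares have exact Clopper-Pearson intervals and differences of shares Newcombe intervals. Leanings used cells thinned to 4000 UMIs. Doublets were called with the scrublet method in scanpy 1.11.5 and kept. Folds and their intervals were tested on simulated counts that held counting error only, so the coverage of those intervals was nearly fixed in advance. Spread between cells was not simulated, and the intervals of levels and shares were not tested. Python 3.11.15, numpy 2.4.6, scipy 1.17.1 and pandas 2.3.3 were used. Positions come from GENCODE vM21.

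The members, lists and settings were chosen with earlier results of these data known. Named single genes were the 12 highest and 12 lowest ratios among ranked genes at least as high in progenitors as in other cells, the 4 highest and 4 lowest of the rest, up to 4 members of each list furthest from 0, the markers, and the 15 genes highest over other cells. Haemoglobin, antigen receptor, Gm and Rik genes, rule genes and genes with over 20% of UMIs in 1 cell were left out of the ratio rankings. Other list members are named to show those that were close. No block or paired fit was possible with 1 library per condition. A few named genes are not reported here.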

Additional observations from a re-analysis of the deposited data

How the results depend on the processing

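Of 861 values under alternative settings, 823 stayed within the counting interval of the reported value. Counts of genes and lists were held to 1.5-fold instead. Another 38 moved, and none of those called changed sign. Leaving out doublets kept the same 94 members, so its 81 values were nearly fixed in advance. So were the 73 values after the median log2 ratio of -0.0037 was set to 0. The single-gene log2 ratios were fixed under limits of 20 and 100 UMIs per gene, since that limit does not enter a ratio. The 823 thus include values that had little or no room to move. The numbers of genes past 1.5-fold followed the depth limit: with at least 20 UMIs per gene 860 were higher and 926 lower in MCAO progenitors among 7448 ranked, and with at least 100 UMIs 77 were higher and 98 lower among 2287. With a Cd34 and Kit sum of at least 5, the lymphoid leaning turned from 2.90 to -18.8 points (10 MCAO and 16 control cells). That setting, like others that changed the members, thinned the cells anew. It left 16 control cells passing, against 14 as reported, although it only removes members. Its effect cannot be told apart from that of the new draw. The stem, monocyte and dendritic, megakaryocyte and granulocyte leanings also turned below 0 under some settings, to -7.16, -7.07, -4.27 and -0.45 points at the lowest. The causes were not tested. The difference in progenitor share ran from -0.889 to 0.00664 points, and 5 to 7 lists had a median at least 0.25 from 0, against 6 in the reported setting. The mitosis median ran from -0.82 (Cd34 and Kit of at least 5) to -0.43 (cells weighted alike), the interferon median was -0.27 under that Cd34 and Kit limit, and DNA replication was 0.17 with a higher UMI limit per cell. Leaving out the members with eosinophil or T or NK markers was chosen after seeing the data. No paired analysis was possible because each condition has 1 library. The 48 MCAO and 46 control cells limit the precision of every share.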
